A study of Mus musculus with 4 samples.

Results

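The genes of the cytosolic ribosomal proteins were followed in RNA of dendritic cells sorted from mouse spleen. A row of the deposited table counted as a member when its symbol was Rpl or Rps followed by a number, or Rpsa, Rplp0, Rplp1 or Rplp2. The 9 Rps6k kinase rows and 55 rows of named pseudogenes were left out. This gave 87 of 17300 rows. Of these, 77 are canonical ribosomal protein genes, 46 of the large and 31 of the small subunit, and 10 paralogs and like-named genes are shown apart. The table holds 2 KO and 2 WT libraries. Per the labels the genotype was KO or WT, the titles of the KO samples begin with EKO, and the series title concerns Siglec-E, an inhibitory sialic acid receptor of myeloid cells. The labels do not name the deleted gene, and give no age, sex or strain and no treatment. All columns begin with Allo, which is not explained in the sources used here. Whether the 2 libraries of a group stem from different animals is not stated either, so each p-value reflects the spread of these libraries alone, and that spread may be technical. The KO columns bear other numbers than the sample titles and are named KO A and KO B here.

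A cytosolic ribosome is built from ribosomal RNA and about equal numbers of each ribosomal protein, so cells keep the output of these genes closely matched. Their mRNAs begin with a run of pyrimidines at the cap, the 5′ terminal oligopyrimidine tract, through which mTORC1 and the binding protein LARP1 set how strongly they are translated. Proteins made in excess are degraded, and free Rpl5 and Rpl11, bound to 5S ribosomal RNA, restrain MDM2 and so stabilize p53. Dendritic cells adjust their rate of protein synthesis as they mature.

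The start regions of a few members are shown, 6 with a pyrimidine run near the annotated start and 2, of Rplp0 and Rpl5, with none found there. They are examples and do not give how often a run was found. Windows of Rpsa, Rps19 and Rpl22 and the second window of Rps27l are not shown, and most of these had no run. Each line runs from 15 bases before the start annotated by RefSeq (GRCm38.p6) to 15 bases from it on, in the direction of transcription. Capitals mark the C nearest to that start, within 10 bases, that is followed by at least 4 pyrimidines, together with those pyrimidines. Of the runs shown, only that of Rps27 begins exactly at the annotated start. The starts used in these cells were not determined here. A line with no run found therefore does not show that the mRNA lacks the tract. The build is older than the GRCm39 of the submitters' processing notes, and members were matched by symbol.
Rps7 (chr12:28635939-28635968, minus strand): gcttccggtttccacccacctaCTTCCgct
Rps26 (chr10:128626492-128626521, minus strand): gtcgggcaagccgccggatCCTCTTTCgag
Rps27 (chr3:90213634-90213663, minus strand): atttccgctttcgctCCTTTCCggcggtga
Rps27l (chr9:66946071-66946100, plus strand, the first of 2 windows): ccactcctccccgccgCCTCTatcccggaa
Rpl12 (chr2:32961697-32961726, plus strand): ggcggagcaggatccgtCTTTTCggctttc
Rplp0 (chr5:115559452-115559481, plus strand, no run found): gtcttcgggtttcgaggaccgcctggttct
Rpl5 (chr5:107900513-107900542, plus strand, no run found): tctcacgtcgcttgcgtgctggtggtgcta
Rpl22l1 (chr3:28805493-28805522, plus strand): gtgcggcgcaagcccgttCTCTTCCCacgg

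RefSeq promoter windows of 300 bases were found for 57 of the 77 canonical members, 67 windows in all. Such a pyrimidine run lay within 10 bases of the annotated start in 36 of the 67 windows (53.7%), and in 30.7% of the 32851 windows of all genes. It began exactly at that start in 19.4% of member windows and in 2.51% of all windows. The letters CCGGAAG, a core bound by ETS factors, stood on either strand in 37.3% of member windows and in 8.86% of all. AAGATGG, part of a YY1 site, was in 16.4% against 6.34%, the E-box CACGTG in 11.9% against 7.15%, and TATAAA in 8.96% against 13.6%. In the 150 bases before the annotated start of Rps7 (chr12:28635954-28636103, minus strand, GRCm38.p6), CCGGAAG was found once, on the other strand, and is in capitals.
Rps7 upstream: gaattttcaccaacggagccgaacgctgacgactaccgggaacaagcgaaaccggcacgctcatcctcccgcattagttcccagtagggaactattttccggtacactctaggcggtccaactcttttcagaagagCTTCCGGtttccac
These matches describe the windows only. No binding was measured.

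Values in the table are log2 values after a variance-stabilizing transform. Undoing it gave normalized read counts of between 29002408 and 30952251 per library, which do not give sequencing depth. Siglece, the gene of Siglec-E, was at 8.92 and 8.96 in KO and at 10.38 and 10.14 in WT. Of 11864 genes that passed the filter on low values, 822 (6.93%) differed between KO and WT in limma at an adjusted p of 0.05, 557 higher (4.69%) and 265 lower (2.23%). Markers of dendritic cells were lower in the KO libraries: 9 of 20 fell, 0 rose, the median was -0.40, and the list held 1.53% and 1.42% of counts in KO against 2.04% and 2.08% in WT. Markers of NK cells, erythroid cells and macrophages had medians of 0.76, 1.33 and 0.72 with 11 of 15, 10 of 18 and 5 of 14 genes higher, and 0 lower in each. Monocyte and neutrophil markers had medians of 0.56 and 0.80, with 6 of 14 and 3 of 14 higher and 0 lower. Of B cell, T cell and plasma cell markers 1 of 12, 2 of 8 and 1 of 7 were higher and 0 lower. Monocyte genes held 0.458% and 0.446% of counts in KO and 0.300% and 0.287% in WT. Erythroid genes held 0.196% and 0.283% of counts in KO and 0.0344% and 0.101% in WT. The part of these marker genes in the ribosomal protein values was not tested, and in bulk RNA fewer cells of a type and less RNA per cell cannot be told apart.

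Ribosomal protein genes held closely together between KO and WT, with 1 exception. Of 85 members tested, 1 fell, Rps7, and 0 rose, beside 2.23% and 4.69% of all genes. At an unadjusted p under 0.05 limma had 3 members lower, Rps7, Rps26 and Rpl22 (10.5% of all genes), and 1 higher, Rpl12 (14.2% of all genes). A difference of 0.5 log2 units or more in either direction was found in 1 of 85 members and in 6.9% of all genes. Differences of the other 76 canonical members ran from -0.24 (Rps26) to 0.26 (Rpl12), with an SD over genes of 0.077, while the SD over all genes tested was 0.28. The 95% interval of the difference lay within 0.5 log2 units of 0 for each of these 76 genes, and the same held for 8994 of the 11864 genes. The median difference of the 77 was -0.07, beside a median near 0 (-0.0017) over all genes tested. It was -0.07 for the large and -0.08 for the small subunit.

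**Figure D1:**
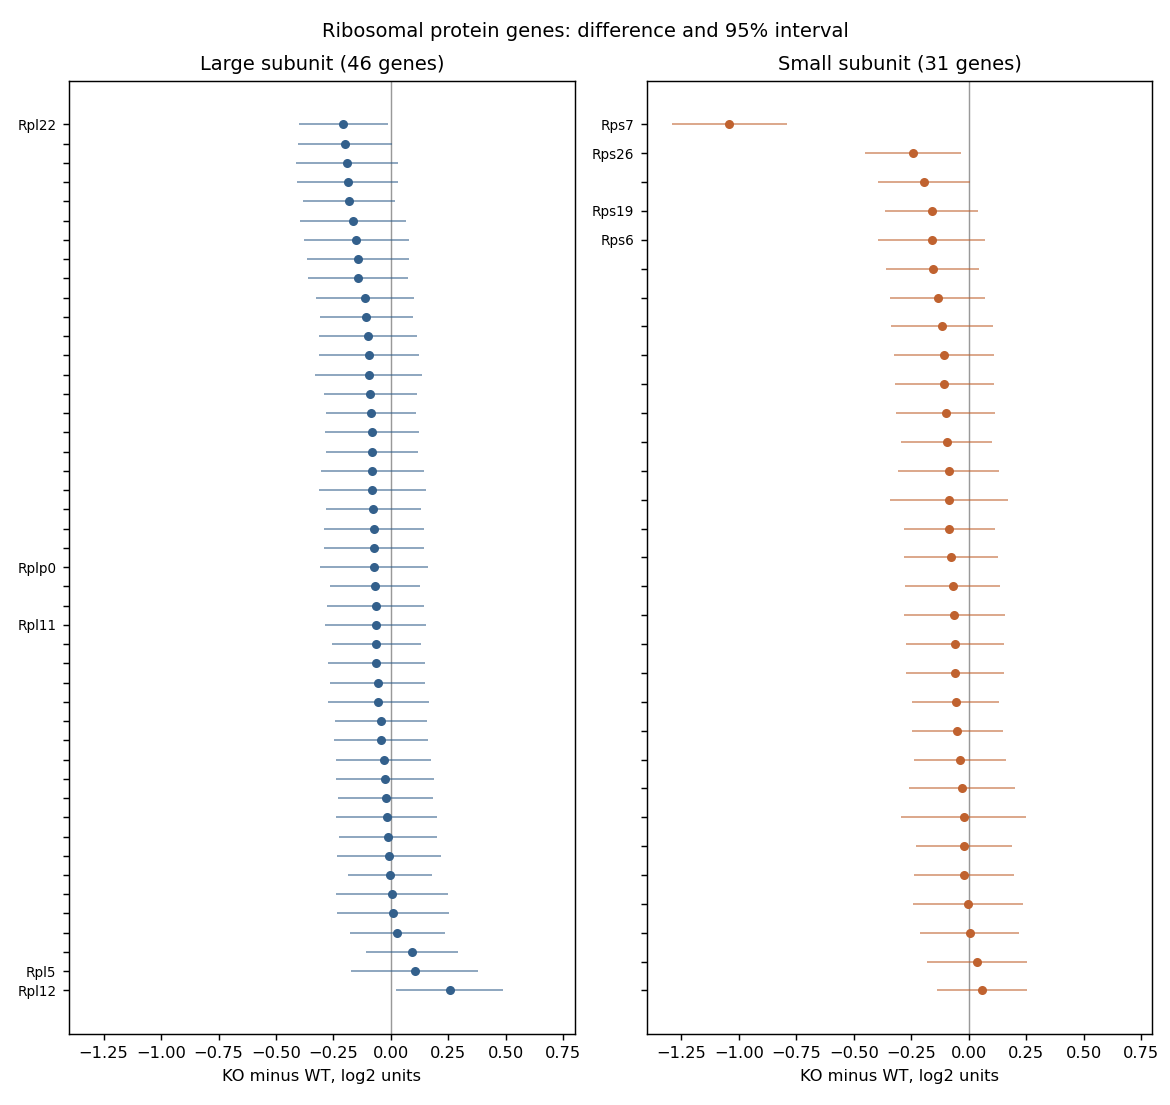
Difference between KO and WT (x axis, log2 units) for each of 46 large and 31 small subunit genes, ordered by size; points are limma estimates from 2 KO and 2 WT libraries and bars their 95% intervals, and 9 genes are labelled. Rps7 stands alone at -1.04, and all other genes lie between -0.24 and 0.26.

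In the deposited log2 values the small shift of the median below 0 came mostly from KO B. Of the 77 canonical genes 68 had a lower mean in KO. Against the WT mean the median was near 0 (-0.0041) in KO A and -0.14 in KO B. KO A was above KO B in 75 of 77 genes, by a median of 0.14, and all but Rpl36a and Rps12 showed this order. Over all genes tested KO A was above KO B in 5976 of 11864. The WT libraries differed by a median of only -0.0025, with WT 2 above WT 1 in 36 of 77 genes. Without KO B 40 of 77 genes were lower in KO, and without KO A 72 were. For 28 of the 76 members other than Rps7 both KO libraries lay below both WT libraries. Over all genes tested this held for 3343 of 11864 (28.2%), a smaller share. Both KO libraries lay above both WT libraries for 2 of the 76, Rpl12 and Rpl37a, and for 28.1% of all genes. The canonical genes together held 3.30% of normalized counts in KO A, 3.04% in KO B and 3.55% in each WT library. By this share KO A, too, was below both WT libraries. Without Rps7 the shares were 3.27% in KO A, 3.01% in KO B and 3.49% in each WT library. A share also depends on the library total, which was 30952251 for KO A, 30274060 for KO B, 29002408 for WT 1 and 29377044 for WT 2. The canonical counts themselves, Rps7 included, summed to 1022241 for KO A, 919399 for KO B, 1030149 for WT 1 and 1042687 for WT 2. The lower share of KO A thus came in part from its larger total, and does not by itself show less ribosomal protein mRNA.

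**Figure D2:**
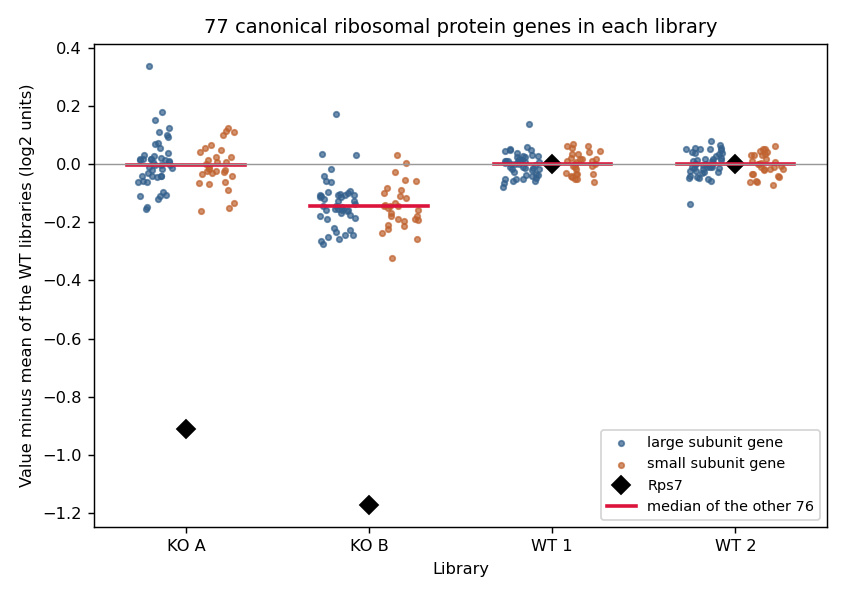
Value of each canonical ribosomal protein gene minus the mean of its WT libraries (y axis, log2 units) in each of the 4 libraries (x axis); points are genes, diamonds Rps7, and red bars the median of the other 76 genes. Points of KO B lie lower than those of KO A by a median of 0.14, and the diamonds of the KO libraries lie at -0.91 and -1.17; the WT points are centred on 0 by construction.

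Rps7 encodes a protein of the small subunit body that is needed for processing of the small subunit's ribosomal RNA. Its row (ENSMUSG00000061477) had log2 values of 13.17 (KO A) and 12.91 (KO B), and of 14.08 in WT 1 as in WT 2. In normalized counts these were 8696 and 7174 in KO, and 16812 and 16795 in WT. Both KO libraries were thus far below the WT libraries, which were nearly equal. Rps7 fell by 1.04 (SE 0.105, adjusted p = 0.0147 in limma; 95% interval -1.29 to -0.79), or 2.12-fold in counts. A fall of 1 log2 unit or more was found in 12 of 11864 genes (0.101%). The next lowest canonical member, Rps26, lay 0.80 log2 units above it. Compared with the median of the other 76 canonical genes in the same library, Rps7 was at 0.67 and 0.65 in the WT libraries and at -0.23 and -0.32 in KO A and KO B. The size held when each library was left out in turn, at -1.17 without KO A, -0.91 without KO B and -1.04 without either WT library. With 1 KO library left, however, Rps7 missed the threshold (adjusted p = 0.0545 without KO A and 0.0851 without KO B), and over all genes 0 and 3 passed there (2508 and 2448 had an unadjusted p under 0.05).

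Ribosomal protein genes have many near-identical copies in the mouse genome, most of them processed pseudogenes, between which the authors' counting could split reads. Copies were sought among GENCODE M21 transcripts with at least 95% identity over at least 80% of the coding sequence. Rps7 had 7, of which 5 are rows of the table. These 5 held few counts: the most abundant, Gm7285, had counts of 85.7 and 96.1 in KO and of 137 and 118 in WT. With all 5 added, the Rps7 counts were 8948 and 7451 in KO and 17127 and 17070 in WT, and the difference was -1.02 (adjusted p = 0.0146). The counts by which Rps7 was lower were thus not found in these 5 rows. The other copies, Gm6472 at 99.5% identity and Gm8019, were not analysed here.

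Among the 6 rows of the table on each side of Rps7, in the gene order of M21, 9 were tested, and 0 of these fell in limma (2 were lower at an unadjusted p under 0.05, Rnaseh1 and Tmem18). Next to Rps7, Dcdc2c differed by -0.07 (adjusted p = 0.665) and Rnaseh1, which removes RNA from RNA-DNA hybrids, by -0.23 (adjusted p = 0.168). Adi1 and Trappc12 followed at 0.11 and -0.16 (adjusted p = 0.484 and 0.303). Of the 9, 3 rose. These were Rnf144a, the antiviral gene Rsad2 and its neighbour Cmpk2, with differences of 0.78, 1.05 and 0.54 (adjusted p = 0.0253, 0.0199 and 0.0277).

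For several other members the row with the gene's name held only a part of the counts. A copy was found for 74 of the 77 canonical genes and was a row of the table for 55. The named row held at least 95% of the summed counts in 59 genes and under 50% in 6. Rpl12, a protein of the stalk base, was at 10.46 and 10.29 in KO and at 10.11 and 10.13 in WT. It was the highest of the canonical differences (0.26, SE 0.097, adjusted p = 0.168), with both KO libraries above both WT libraries. Its row held 8.27% of the summed counts, however, and Gm10275, which is 100% identical to its coding sequence, was at 13.09 and 12.99 in KO and 13.18 and 13.16 in WT. Summed with copies, the difference of Rpl12 was -0.09 (adjusted p = 0.539). Rpl5 behaved alike. Its row was at 12.14 and 11.99 in KO and at 12.10 and 11.82 in WT, the widest gap between WT libraries among canonical members, and it held 10.2% of the summed counts. The identical copy Gm15500 had 32188 and 29743 normalized counts in KO and 32824 and 33651 in WT, and the difference moved from 0.10 to -0.08 (adjusted p = 0.636 and 0.621). Rps23 held 31.4% beside Rps23-ps1, and its difference moved from -0.16 to -0.07. With copies summed throughout, the other 76 members ran from -0.24 to 0.09 with an SD of 0.059 in place of 0.077, and 71 of 77 were lower in KO.

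**Figure D3:**
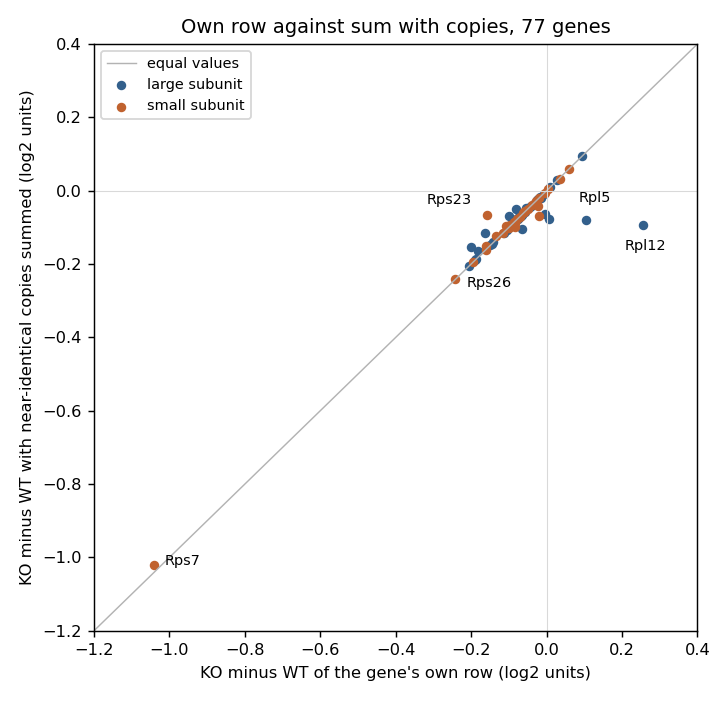
Difference between KO and WT of each canonical gene's own row (x axis) against the difference after its near-identical copies in the table were summed with it (y axis), both in log2 units; points are genes and the line marks equal values. Rpl12 and Rpl5 move from above 0 to below it, while Rps7 stays near -1.

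Among small subunit genes, those mutated in Diamond-Blackfan anaemia, an inherited failure of red cell production, were followed one by one. Rps7 is one of them, and of Rps10, Rps19, Rps24, Rps26 and Rps28, which are given beside it, 0 passed in limma (Rps26 was lower at an unadjusted p under 0.05). Rps26, which lies at the exit of the mRNA channel, was at 13.38 and 13.22 in KO and at 13.54 and 13.55 in WT. Both KO libraries were lower, by 0.24 on average, but the difference did not pass (SE 0.088, adjusted p = 0.153). Rps19, the gene most often mutated in the disease, was at 13.22 and 13.16 in KO and at 13.41 and 13.29 in WT, a difference of -0.16 (adjusted p = 0.293). Values of Rps24 were 14.13 and 13.99 in KO and 14.23 and 14.12 in WT, so the groups overlapped (-0.11, adjusted p = 0.494). Rps10 was at 12.76 and 12.66 in KO and at 12.73 and 12.80 in WT (-0.05, adjusted p = 0.764). Rps28 was at 12.97 and 12.78 in KO and at 12.98 and 12.94 in WT (-0.09, adjusted p = 0.613). The groups overlapped in both. Rps6, the substrate of S6 kinase downstream of mTORC1, was at 14.26 and 14.07 in KO and at 14.28 and 14.37 in WT. It differed by -0.16 (95% interval -0.39 to 0.07, adjusted p = 0.360). Rps27a, made as a fusion with ubiquitin, was at 13.91 and 13.73 in KO and at 13.94 and 13.92 in WT (-0.11, adjusted p = 0.521).

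Of the 46 large subunit genes 0 passed in limma (Rpl22 lower and Rpl12 higher at an unadjusted p under 0.05). The stalk proteins Rplp0, Rplp1 and Rplp2, which recruit elongation factors, differed by -0.07, 0.0093 and -0.04 (adjusted p = 0.702, 0.971 and 0.804). Rplp0, often used as a reference gene, had 33945 and 30032 normalized counts in KO and 32287 and 34969 in WT, with the groups overlapping. Rplp1 was at 14.25 and 14.04 in KO and at 14.07 and 14.20 in WT, and Rplp2 at 14.50 and 14.39 in KO and at 14.51 and 14.47 in WT. Rpl11, the partner of Rpl5 in the 5S particle, was at 13.43 and 13.24 in KO and at 13.41 and 13.40 in WT (-0.07, adjusted p = 0.711). Rpl5, Rpl11, Rpl15, Rpl26 and Rpl35a are the large subunit genes mutated in Diamond-Blackfan anaemia that were listed. Rpl15 was at 12.79 and 12.62 in KO and at 12.94 and 12.86 in WT (-0.19, adjusted p = 0.260). Rpl26, which also binds p53 mRNA, was at 14.89 and 14.70 in KO and at 14.96 and 14.93 in WT (-0.15, adjusted p = 0.386). Both were lower in both KO libraries, while Rpl35a overlapped between groups (-0.06, adjusted p = 0.707), at 12.85 and 12.68 in KO and 12.84 and 12.82 in WT. Rpl37 had the widest WT gap after Rpl5 in the large subunit, with 13.10 in WT 1 and 13.26 in WT 2 against 13.09 and 12.95 in KO. Rpl37 differed by -0.16 (adjusted p = 0.344). Its row held 71.0% of the counts summed with its copy, Rpl37rt, which is a member shown apart. The summed difference was -0.12 (adjusted p = 0.495 in limma).

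Paralogs are close relatives that can take the place of a ribosomal protein. Of the 10 members shown apart, 8 passed the filter, and 0 of these 8 passed the test in limma, also at an unadjusted p under 0.05. Rpl22 binds RNA and is dispensable for translation itself. It was at 13.42 and 13.32 in KO and at 13.58 in both WT libraries (-0.21, adjusted p = 0.178). Its paralog Rpl22l1 was at 10.33 in both KO libraries and at 10.17 and 10.30 in WT (0.10, adjusted p = 0.564). Rpl22l1 thus made up 7.24% and 7.74% of the counts of this pair in KO and 5.53% and 6.29% in WT, without correction for length. The shares did not overlap between groups, but 2 against 2 samples cannot give an exact two-sided permutation p below 0.333. Rps27l, a p53 target and paralog of Rps27, was at 9.81 and 9.83 in KO and at 9.74 in both WT libraries (0.08, adjusted p = 0.615). It held 6.12% and 6.89% of the counts of its pair in KO and 5.65% and 5.99% in WT. Rpl7l1 and Rps4l went the other way. Rpl7l1 held 9.23% and 8.85% of its pair with Rpl7 in KO and 10.52% and 10.03% in WT. Rps4l held 1.46% and 1.25% of its pair with Rps4x in KO and 1.49% and 1.54% in WT. The share of Rpl36al beside Rpl36a overlapped, at 50.8% and 43.5% in KO and 43.8% and 49.4% in WT. That of Rpl3l beside Rpl3 was higher in KO, at 0.247% and 0.270% against 0.148% and 0.0847% in WT.

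Rpl7l1, a nucleolar relative of Rpl7, was at 11.38 and 11.22 in KO and at 11.53 and 11.47 in WT (-0.20, adjusted p = 0.237), with both KO libraries lower. Rpl36al was at 12.17 and 11.85 in KO and at 11.97 and 12.16 in WT, and had the widest spread within groups of those shown apart. M21 annotates Rps4l, Rps12l1 and Rpl37rt as processed pseudogenes. Rps4l was at 9.26 and 9.13 in KO and at 9.29 and 9.30 in WT (-0.10), Rps12l1 at 12.15 and 11.95 in KO and at 12.28 and 12.12 in WT (-0.15), and Rpl37rt at 12.01 and 11.84 in KO and at 11.91 and 11.92 in WT (0.0090). The Rps12l1 row held only 42.0% of the counts summed with its near-identical copies. Canonical Rps12 had the same summed counts, of which its own row held 36.8%. The difference of this shared sum was -0.07 (adjusted p = 0.673 in limma), so it is not a value of Rps12l1 alone. Rps19bp1, which matched by name alone, is a binding partner of Rps19 and not a ribosomal protein; it was at 9.64 and 9.33 in KO and at 9.49 and 9.56 in WT. Rpl3l, the striated muscle relative of Rpl3, was near the lowest value of the table and was not tested. Its counts were 57.6 and 59.7 in KO and 32.8 and 20.3 in WT, with both KO libraries higher. Rpl6l, annotated as a processed pseudogene, was also not tested, with counts of 36.3 and 43.6 in KO and 67.7 and 49.4 in WT, with both KO libraries lower.

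Lists of other genes that make or use ribosomes are given beside the 4.69% of all genes tested that were higher and the 2.23% that were lower. Of 78 tested mitochondrial ribosomal protein genes 0 passed in limma (3 lower and 0 higher at an unadjusted p under 0.05), with a median of -0.03. Of 20 elongation factors and other genes with terminal oligopyrimidine tracts 0 passed (3 lower and 1 higher unadjusted). Fau, which encodes a ribosomal protein fused to a ubiquitin-like domain, and Rack1, which sits on the small subunit, differed by -0.14 and -0.05. Among 29 initiation factors 2 rose and 0 fell. Eif1, which scans for the start codon, had 7214 and 7670 normalized counts in KO against 4402 and 5102 in WT (0.60, adjusted p = 0.0251), and Eif5 rose by 0.42 (adjusted p = 0.0404). Of 87 ribosome assembly genes 1 rose, the nucleolar GTPase gene Gnl3 (0.50, adjusted p = 0.0427), and 1 fell, Wdr12 of the PeBoW complex (-0.47, adjusted p = 0.0463). In RNA polymerase I 0 of 18 passed (0 lower and 2 higher unadjusted).

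In the mTORC1 list 1 of 31 fell, the arginine sensor relative Castor2 (-0.48, adjusted p = 0.0315), and 0 rose. Mtor differed by -0.08 and Larp1 by 0.10. In the MYC network 2 of 10 rose, the MYC antagonists Mxd1 (0.74, adjusted p = 0.0314) and Mxi1 (0.44, adjusted p = 0.0465), while Myc differed by 0.13 (adjusted p = 0.431). Of 13 genes of the p53 response 1 rose. This was the cell cycle inhibitor Cdkn1a, at 10.42 and 10.32 in KO and at 9.28 and 9.76 in WT (0.85, adjusted p = 0.0359). In ribosome rescue 1 of 18 fell, Eif2ak4, the GCN2 kinase that senses stalled ribosomes (-0.41, adjusted p = 0.0438). These lists together had 6 genes higher and 3 lower. Without KO A, and without KO B, 0 of them passed, without WT 1 the 6 became 3, and without WT 2 the 3 became 0. Immediate early genes, which respond within minutes to stimulation or tissue handling, rose in 21 of 26, and mitochondrially encoded mRNAs had a median of -0.22 with 0 of 13 called (1 lower and 0 higher unadjusted). Their part in the values above was not tested.

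**Figure D4:**
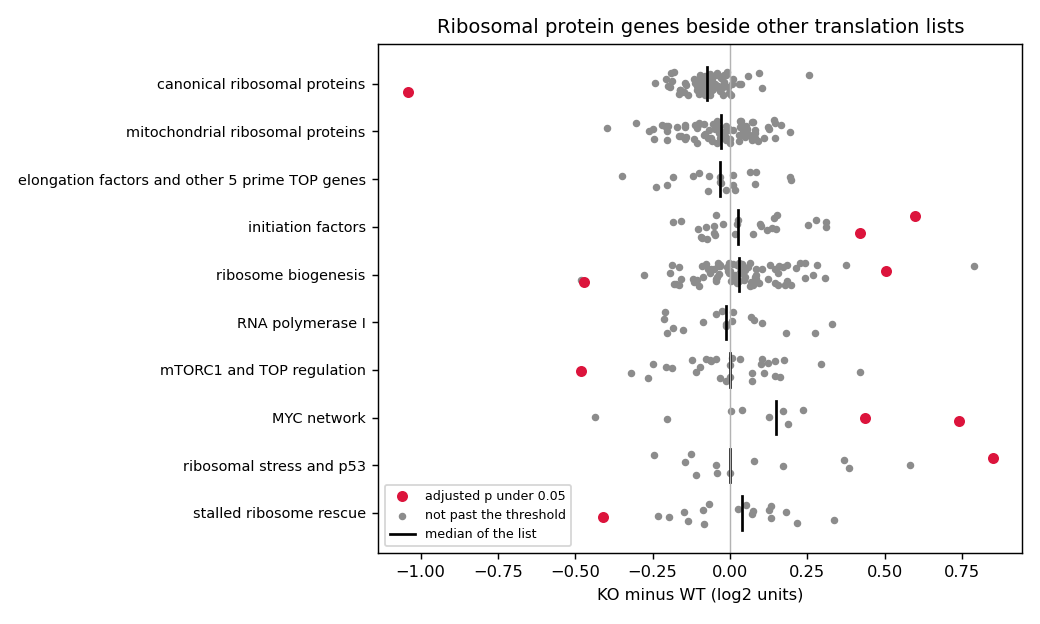
Difference between KO and WT (x axis, log2 units) of each tested gene in 10 lists (y axis, with random vertical offsets); red points passed an adjusted p of 0.05, grey points did not, and black bars mark each list's median. Rps7 is the only red point among the canonical ribosomal protein genes.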

How the data were processed

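The authors deposited 1 table of log2 values for 17300 genes, already scaled between libraries. Salmon 1.10.1, DESeq2 and GRCm39 are named in the submitters' processing notes, with no role or order. Which annotation and gene filter were used is not given in the sources used here. All libraries share the lowest value, 8.04, and normalized counts were computed from it by undoing a variance-stabilizing transform. They are not raw reads, so depth is unknown and no counting interval is given. Symbols came from GENCODE M21 (17289 matched). Genes whose mean exceeded that lowest value by 1 log2 unit or more were compared in limma 3.58.1 (R 4.3.3) with an intensity trend, two-sided, with Benjamini-Hochberg adjustment over 11864 genes. The fit was tested on simulated data. Copies were found with blastn 2.17.0. Members and lists were chosen with earlier results of these data known, and summing copies was added after seeing the data. Named members were those past the threshold, the stalk, 5S and Diamond-Blackfan lists, Rps6, Rps27a, paralogs, and the 3 largest differences and WT gaps; other members (such as Rpl22, Rps23, Rps27 and Rpl37a) were chosen after their values were seen. From each other list at most 4 called genes by smallest p were named. Some genes of the lists are not reported here by name.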

Additional observations from a re-analysis of the deposited data

How the results depend on the processing

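Rps7 was lower in KO under every alternative run, by between 0.91 and 1.17 log2 units. It passed the threshold without the filter, with a filter of 2 log2 units, without the intensity trend, with quantile normalization, with centring on genes that are not members, with log2 of the count plus 1, and with copies summed. With libraries left out in turn its values ran from -1.17 to -0.91, and the count of members called lower ran from 0 to 1, 0 without KO A and without KO B. In these runs genes called higher over the whole table ran from 0 to 620 and genes called lower from 0 to 200, and calls in the translation and ribosome assembly lists ran from 0 to 8 higher and from 0 to 2 lower. Quantile normalization left 366 genes higher in place of 557, and 282 lower in place of 265. The median difference of canonical members ran from -0.14 without KO A to near 0 (-0.0041) without KO B and was -0.12 with quantile normalization. The other 26 named members that were tested missed the threshold under every alternative in which they were tested. Rps19bp1, Rps27l and Rps4l have no value with the filter of 2 log2 units. No paired analysis was possible because the KO columns carry other numbers than the KO sample titles. With 2 libraries a group, the median half-width of the 95% interval over canonical members was 0.21 log2 units, before any adjustment for the number of genes.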
